A study of Mus musculus with 2 samples.

Results

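The genes described here carry proteins into the endoplasmic reticulum (ER), fold them there, and report on or remove those that fail to fold. They were chosen by name: 53 symbols listed for these functions were looked up in the gene column of both count files, and all 53 were found among 23284. No measured value entered that choice, although results of these data were known when the list was drawn up. The measurement was RNA-seq of GFP-positive cells, sorted from the dissociated e15.5 pancreas of embryos that carry NGN3-EGFP, a mouse strain labelled mixed, C57BL6. NGN3 is the factor that starts the endocrine programme, and the series' title calls the cells pancreatic endocrine progenitors. There is 1 group of 2 libraries, replicates 1 and 2, with 12495143 and 12043734 counted reads. The labels do not say how the reporter was built, how many embryos were pooled or whether the replicates are separate litters, so the spread between them may be technical.

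Most proteins that a cell secretes enter the ER while they are being made. The signal recognition particle (SRP) brings the ribosome to its receptor, the Sec61 channel lets the chain through, and signal peptidase cuts off the leader. Chaperones and disulphide isomerases then fold the chain, and ER-associated degradation (ERAD) returns failures to the cytosol for destruction. When unfolded protein builds up, the sensors IRE1, PERK and ATF6 start the unfolded protein response (UPR) through the transcription factors XBP1, ATF4, CHOP and ATF6 itself. Insulin-producing cells are known to lean heavily on this system because they make large amounts of a disulphide-bonded prohormone.

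UPR target genes are classically recognised by a promoter element, the ER stress response element (ERSE), in which CCAAT and CCACG stand 9 bases apart. It is bound by ATF6 together with the CCAAT-binding factor NF-Y. The 300-base promoter windows of RefSeq on GRCm38.p6, from 250 bases before the annotated start onwards, held 41 of the 53 genes, and Srp19, Srp68, Sec61a1, Ssr2, Spcs3, Sec11c, Hyou1, Manf, Ero1l, Ero1lb, Atf6 and Derl1 had no entry. On either strand the ERSE was found in 9 of 41 genes, or 22.0%, against 37 of all 27025 genes with a window, or 0.137%, a total that includes those 9. Among the 7687 genes with a window that were expressed in both libraries it was found in 15, or 0.195%, and these also include the 9. The element is known from UPR target genes, and the 53 genes were listed by name for such functions. The higher share is therefore a description and not an independent result. The variant ERSE-II (ATTGG, 1 base, CCACG) was found in Herpud1 and Dnajb11, against 12 of all genes. The XBP1-type element TGACGTGG was found in 0 of 41 genes, in 193 of all genes, or 0.714%, and in 87 of the expressed genes, or 1.13%. The ATF4-type element TGATGNAA was found in Herpud1 alone, or 2.44%, in 1219 of all genes, or 4.51%, and in 208 of the expressed genes, or 2.71%. With 41 genes, counts of 0 and 1 are too small to tell from these shares. No match of these 4 patterns overlapped another in the windows of the 41 genes. A match describes letters in a window and does not show that a factor was bound.

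The stretches below show the elements in the 2 most abundant chaperone genes, in 1 disulphide isomerase gene, in the ERAD gene with the lowest level among the 9, and in Herpud1, which holds both of the other kinds. Each is read 5′ to 3′ on the gene's strand with 15 bases on either side, and capitals mark the matches.
Hspa5, chr2:34772010-34772058, plus strand: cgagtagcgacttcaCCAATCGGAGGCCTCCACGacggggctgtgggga
Hsp90b1, chr10:86705518-86705671, minus strand: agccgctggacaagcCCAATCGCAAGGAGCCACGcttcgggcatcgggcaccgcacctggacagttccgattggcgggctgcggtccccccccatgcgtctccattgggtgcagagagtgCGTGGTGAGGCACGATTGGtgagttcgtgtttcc
Pdia6, chr12:17266476-17266524, plus strand: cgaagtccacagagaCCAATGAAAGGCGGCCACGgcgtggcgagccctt
Derl3, chr10:75893227-75893275, plus strand: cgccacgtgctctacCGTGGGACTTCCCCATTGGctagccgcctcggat
Herpud1, chr8:94386302-94386402, plus strand: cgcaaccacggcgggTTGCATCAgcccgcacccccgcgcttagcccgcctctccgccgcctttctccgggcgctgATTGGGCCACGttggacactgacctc

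Hsp90b1 was the only gene of the 41 with 2 ERSE matches, in opposite orientations. By role, the element was found in 6 of 9 chaperone genes with a window (Hspa5, Hsp90b1, Calr, Canx, Dnajc3 and Creld2), in Pdia6 and in the ERAD genes Syvn1 and Derl3. It was found in 0 of 14 genes of targeting, translocation and signal cleavage, and in 0 of 5 sensor and transcription factor genes. The 9 genes with an ERSE had a median level of 121 CPM per kb (reads scaled to library size and divided by exon length), from 11.4 for Derl3 to 620.5 for Hsp90b1, and the 32 without had a median of 45.3, from 3.10 to 479. The ranges overlap, and the difference of the medians was not tested.

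**Figure D1:**
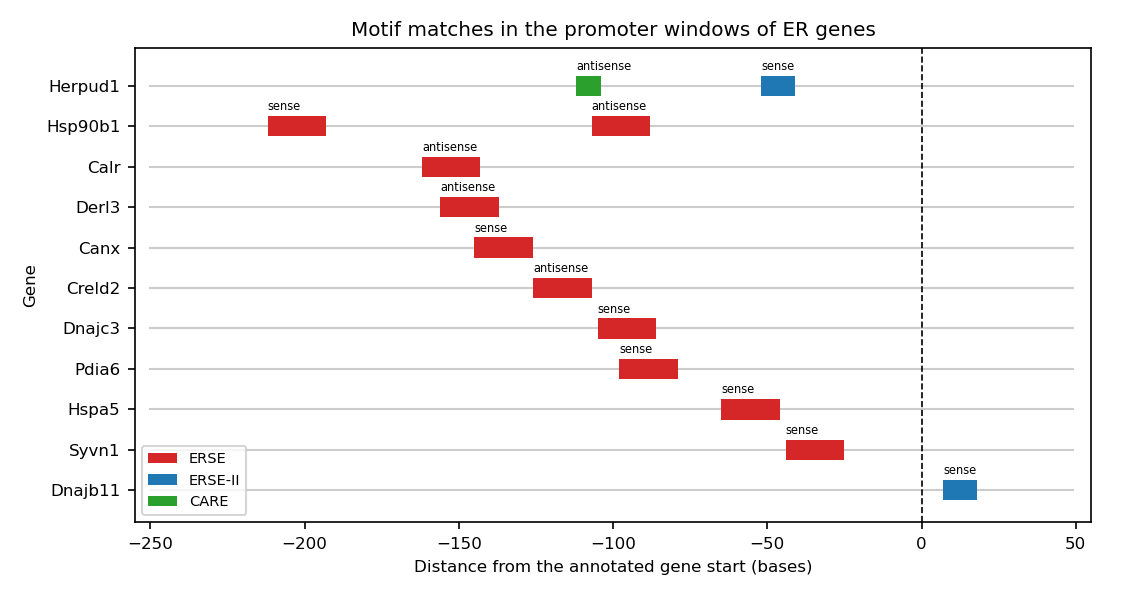
Positions of ERSE, ERSE-II and ATF4-type (CARE) matches in the promoter windows of the 11 genes that hold any; the horizontal axis is the distance in bases from the annotated start (dashed line), and sense or antisense gives the strand of the match. All ERSE matches lie before the start, and the match in Dnajb11 lies after it.

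All 53 genes were expressed in both libraries. Each reached 1 CPM, the reads scaled by library totals and TMM factors, in both, as did 45.7% of all genes in the files. For 40 of them the mean was 100 CPM or more. Together they took 1.395% of the reads in replicate 1 (exact Clopper-Pearson 95% interval 1.388 to 1.401, counting error only) and 1.549% in replicate 2 (1.542 to 1.556). Their median level was 53.9 and 56.2 CPM per kb in replicates 1 and 2, against 7.13 and 7.35 over the 13416 genes with at least 10 reads. All 53 lay above the median of the 22793 genes with a known exon length in both libraries, and 37 lay in the top 10% in both. When the genes were ordered by mean level per kb, the library ranges of neighbours overlapped in 47 of 52 pairs. The order of most neighbours is therefore not settled by 2 libraries. Neighbours in a sorted order are close by construction, so the overlap does not show that their levels are equal. The pairs without overlap were Hsp90b1 over Hspa5, Pdia3 over Sec61b, Ssr3 over Ssr2, Edem2 over Sec61g and Sec61g over Eif2ak3. The order also rests on the lengths: Hsp90b1, Hspa5 and Pdia3 were the top 3 by exon length, whereas Ssr3 and Hspa5 came first by coding length.

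**Figure D2:**
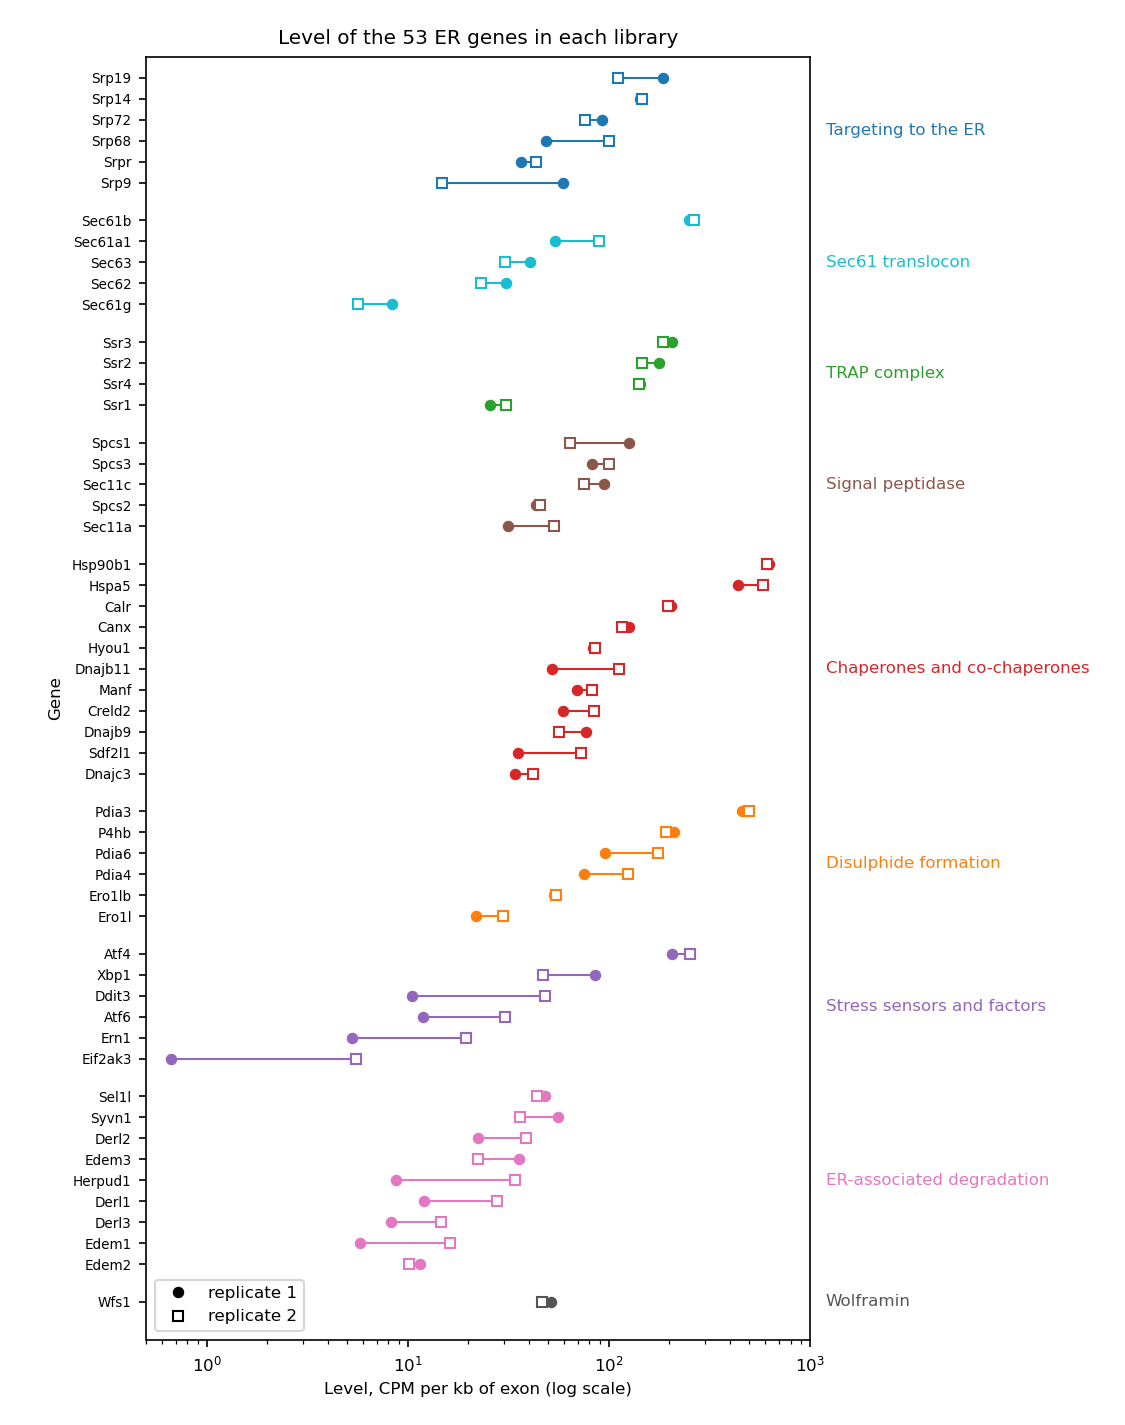
Level of each of the 53 genes in CPM per kb of exon (log axis) in replicate 1 (filled circles) and replicate 2 (open squares), grouped by role. Chaperones and isomerases reach the highest levels, up to 628, and Eif2ak3 the lowest, 0.664 in replicate 1.

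Markers of the sorted cells and of possible companions were read in the same libraries. Neurog3, the gene the reporter is named for, had 9150 and 6671 reads. All 7 endocrine markers reached 1 CPM in both, with a median of 735.5 and 591 CPM in replicates 1 and 2. Of 14 acinar markers 10 did, with summed levels of 2578 and 1757 CPM and no read of Pnlip or Gp2; of 6 ductal markers 6 did, summing to 673.5 and 619 CPM. Of 8 mesenchymal markers 5 did, summing to 422 and 138 CPM. Of 4 immune markers 2 did, Laptm5 and Cd68, and the 4 summed to 56.4 and 11.7 CPM. The other immune markers had at most 4 reads in a library. Of 4 endothelial markers 0 did, summing to 15.8 and 0.909 CPM. Cdh5, with 194 and 2 reads, made 15.6 CPM of the first sum. Pecam1 went the other way with 1 and 8 reads, and the other endothelial markers had at most 1 read in a library. The summed level of 10 hormone genes moved the other way, 1.44-fold higher in replicate 2. Gcg was its largest part, with 174890 and 291167 reads. Not all genes of these lists followed their sums. In the exact binomial test, 6 of the 10 hormone genes were called toward replicate 2 and 1 toward replicate 1. Of the 11 acinar markers tested 7 were called toward replicate 1 and 3 toward replicate 2. Of all genes tested 85.8% were called and 44.1% toward replicate 2. In bulk RNA, fewer cells of a type and less RNA per cell cannot be told apart. The part of these shifts in the differences below was not tested.

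Genes that bring nascent chains to the ER stood at unequal levels. Srp19, an SRP protein that helps the particle assemble, was at 187 and 111 CPM per kb in replicates 1 and 2. Srp14, whose product pairs with that of Srp9 in the part of SRP that slows translation, was at 142 and 145 CPM per kb. Srp9 itself was at 59.4 and 14.7 CPM per kb, below Srp14 in both libraries, although the encoded proteins act as a pair. Unscaled by length it was at 81.9 and 20.3 CPM, the only difference over 2-fold toward replicate 1 among the 53 genes. Srp72 and Srp68, which encode the other paired subunits, were at 92.3 and 75.9 and at 48.9 and 100.1 CPM per kb, so their order turned between the libraries. Srpr, the receptor subunit that docks SRP, was at 36.6 and 43.2 CPM per kb. Only 64.4% of the 25-base words of Srpr and 83.4% of those of Srp9 were found in no other annotated gene, so their counts are less certain. The same holds for Hsp90b1, Spcs1 and Sec61a1 below, with shares of 81.9%, 82.0% and 83.8%.

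The channel genes ranged more widely. Sec61b, which encodes the small beta subunit, was at 249 and 264 CPM per kb, and Sec61a1, which encodes the pore, at 53.9 and 88.8. Sec61g, the gamma subunit gene, was at 8.30 and 5.65 CPM per kb from 204 and 135 reads, and so was 30.1-fold and 46.8-fold below Sec61b in replicates 1 and 2. The gap narrowed with other gene lengths but stayed large, with a mean log2 ratio of -5.23 per kb of exon and -3.48 per kb of coding sequence. Of the words of Sec61b only 40.6% were its own, and 80.2% of those of Sec61g, and how the deposited counts treated reads with several matches is not given in the sources used here. Sec62 and Sec63, partners of the channel that serve chains delivered after translation, were at 30.9 and 23.2 and at 40.5 and 30.4 CPM per kb, each 1.33-fold higher in replicate 1.

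The TRAP complex, which sits beside the channel and helps certain chains through, had the smallest median difference between the libraries of the roles with several genes. Ssr3 was at 204.8 and 185.5 CPM per kb, Ssr2 at 178 and 146, Ssr4 at 143 and 141, and Ssr1 at 25.5 and 30.9. Ssr1 was the lowest of the 4 by this measure, but its exon length of 10227 bases is long against a coding length of 1034, and its median transcript has 1825. The largest difference among the 4 was 1.21-fold, and Ssr4 differed by 1.02-fold with an adjusted p of 0.69 in the exact binomial test.

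Signal peptidase has interchangeable catalytic subunits, Sec11a and Sec11c, and several accessory subunits. Sec11c was above Sec11a per kb of exon in both libraries, at 94.9 and 75.3 against 31.6 and 53.2 CPM per kb, or 3.01-fold and 1.42-fold. This order reversed with exon lengths from all annotated transcripts (mean log2 ratio -0.51 against 1.04), so it rests on the gene model. Spcs1, Spcs2 and Spcs3 were at 126 and 63.9, at 43.5 and 45.6, and at 81.96 and 99.7 CPM per kb. Spcs1 was 1.98-fold higher in replicate 1, and 19.5% of its exon bases overlap Glt8d1 on the opposite strand. Sec61a1, Sec62, Sec11a and Hsp90b1 also overlap an opposite gene over 10% of their exon bases, and without a known strand setting such reads cannot be told apart.

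The chaperone genes include the highest levels of the 53. Hsp90b1, which encodes GRP94, the Hsp90 of the ER, was at 628 and 613 CPM per kb in replicates 1 and 2. Hspa5, which encodes BiP, the central ER Hsp70, was at 438 and 587. Both lay above the 99th percentile of genes with a known length: 99.9 in each library for Hsp90b1, and 99.8 and 99.9 for Hspa5. The lectin chaperones that read N-glycans followed, with Calr (calreticulin) at 203 and 196 and Canx (calnexin) at 126 and 116 CPM per kb. Hyou1, an exchange factor for BiP, was at 83.8 and 85.6 CPM per kb. Hsp90b1, Calr, Canx and Hyou1 each differed by 1.09-fold or less between the libraries, and Hspa5 was 1.34-fold higher in replicate 2 (log2 ratio 0.42, 95% counting interval 0.40 to 0.45).

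The co-chaperones and smaller folding factors were less even. Dnajb11, a J-protein that brings clients to BiP, was at 52.0 and 113 CPM per kb and so 2.17-fold higher in replicate 2. Sdf2l1, which works with it, was at 35.1 and 72.5 CPM per kb, a 2.07-fold difference in the same direction. Dnajb9, a J-protein that also restrains IRE1, went the other way at 76.6 and 56.2, and Dnajc3 was at 34.1 and 42.1. Manf and Creld2, secreted or luminal proteins that classically rise in the UPR, were at 69.1 and 82.4 and at 59.1 and 84.4 CPM per kb. Of the 11 chaperone genes 9 differed between the libraries beyond counting error, 6 toward replicate 2 and 3 toward replicate 1, a share of 81.8% that is near the 85.8% of all genes tested.

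The disulphide genes had a median of 85.5 and 150 CPM per kb, the highest of the roles in replicate 2 and second to the TRAP genes in replicate 1. Pdia3, the isomerase that works with calnexin and calreticulin, was at 461 and 497.5 CPM per kb. P4hb, the archetypal protein disulphide isomerase, was at 211 and 193, Pdia6 at 95.9 and 175 and Pdia4 at 75.1 and 124. Pdia6 and Pdia4 were 1.83-fold and 1.65-fold higher in replicate 2, whereas Pdia3 and P4hb differed by 1.08-fold and 1.10-fold. The oxidases that recharge these enzymes are Ero1l, the widely expressed form, and Ero1lb, the form enriched in pancreas. Ero1lb was at 53.1 and 54.7 CPM per kb, differing by 1.03-fold with an adjusted p of 0.20 in the exact binomial test, and Ero1l was at 21.8 and 29.7. Ero1lb was thus 2.43-fold and 1.84-fold above Ero1l in replicates 1 and 2, and it was above Ero1l with every gene length tried. With 2 libraries no exact test of such an order can go below p = 0.5.

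Sensors and transcription factors of the UPR had a median of 11.2 and 38.9 CPM per kb and were the role with the largest differences between the libraries. Atf4, a factor controlled mainly at translation, was the exception at 206 and 254 CPM per kb, in the top 1% of genes in both. Xbp1 was at 85.3 and 47.3 CPM per kb, 1.81-fold higher in replicate 1. Counts per gene do not separate the spliced form of Xbp1 that IRE1 makes. Ddit3, which encodes CHOP, was at 10.5 and 47.8 CPM per kb from 116 and 515 reads, 4.57-fold higher in replicate 2 (log2 ratio 2.17, interval 1.90 to 2.49). Eif2ak3, which encodes PERK, had 40 reads in replicate 1 and 324 in replicate 2, or 3.22 and 26.8 CPM, an 8.33-fold difference. Ern1, which encodes IRE1, was at 5.26 and 19.4 CPM per kb, 3.69-fold higher in replicate 2, and Atf6 at 11.9 and 30.6, 2.58-fold higher. The level of Ern1 rests on its exon length of 8157 bases. Its mean was 12.3 CPM per kb by that length and 76.9 by its median transcript of 1308 bases. Of the 6 genes, 5 were called toward replicate 2 and Xbp1 toward replicate 1, where 85.8% of all genes tested were called and 44.1% toward replicate 2.

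ERAD genes had the lowest median level after the sensors in replicate 1, at 11.98 CPM per kb, and the lowest of the roles with several genes in replicate 2, at 27.8. In the core of the retrotranslocation complex Sel1l, its scaffold, was at 48.4 and 43.9 CPM per kb, and Syvn1, the ubiquitin ligase HRD1, at 55.5 and 36.2. Herpud1, which assembles this complex and is a well-known UPR target, was at 8.77 and 34.1 CPM per kb, 3.88-fold higher in replicate 2. Its promoter, printed above, holds both the ERSE-II and the ATF4-type match. Among the mannosidase-like proteins that mark glycoproteins for disposal, Edem3 was at 35.5 and 22.2 CPM per kb, Edem1 at 5.76 and 16.2 and Edem2 at 11.4 and 10.1. Edem1 was 2.82-fold higher in replicate 2 and Edem3 was 1.60-fold higher in replicate 1, so Edem3 was 6.16-fold above Edem1 in replicate 1 and 1.37-fold above it in replicate 2. Edem2 was above Edem1 in replicate 1 and below it in replicate 2. The derlins, membrane proteins of the same route, were at 11.98 and 27.8 (Derl1), 22.3 and 38.8 (Derl2) and 8.28 and 14.6 CPM per kb (Derl3), each higher in replicate 2. Derl3 was the lowest of the 3 in both libraries, whereas the order of Derl2 and Derl1 turned with exon lengths from all transcripts.

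Wfs1, the ER membrane protein wolframin, whose loss causes Wolfram syndrome with diabetes, was at 51.7 and 46.3 CPM per kb, a 1.12-fold difference.

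Of the 53 genes, 45 passed the exact binomial test, its p-values adjusted (Benjamini-Hochberg) over 13416 genes. In 26 of them replicate 2 was higher and in 19 replicate 1 was. This share of 84.9% stands against 85.8% of all genes tested, and 44.1% of those were called toward replicate 2, so the count is near the background. The test compares these 2 libraries and not conditions. A difference over 2-fold was less frequent than the background, in 11 of 53 genes or 20.8% against 48.2%. The genes are also more abundant than most, and at matched levels the shares were nearer: 4 of 37 or 10.8% against 12.2% from 100 to 1000 CPM, and 7 of 13 or 53.8% against 43.1% from 10 to 100 CPM. Of the 11 genes, 10 were higher in replicate 2 (Srp68, Dnajb11, Sdf2l1, Ern1, Eif2ak3, Ddit3, Atf6, Herpud1, Edem1 and Derl1) and Srp9 was higher in replicate 1. Over all genes tested, 6466 differed over 2-fold, with 3471 higher in replicate 2 and 2995 higher in replicate 1. These are 25.9% and 22.3% of all 13416 genes tested. The median log2 ratio, replicate 2 over replicate 1, was 0.08 over the 53 genes and 0.04 over all genes tested. It was 1.62 over the 6 sensor and factor genes, 0.80 over the 9 ERAD genes, 0.28 over the 6 disulphide genes, 0.25 over the 11 chaperone genes and between -0.41 and 0.07 over the 4 roles of targeting, channel, TRAP and signal peptidase.

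**Figure D3:**
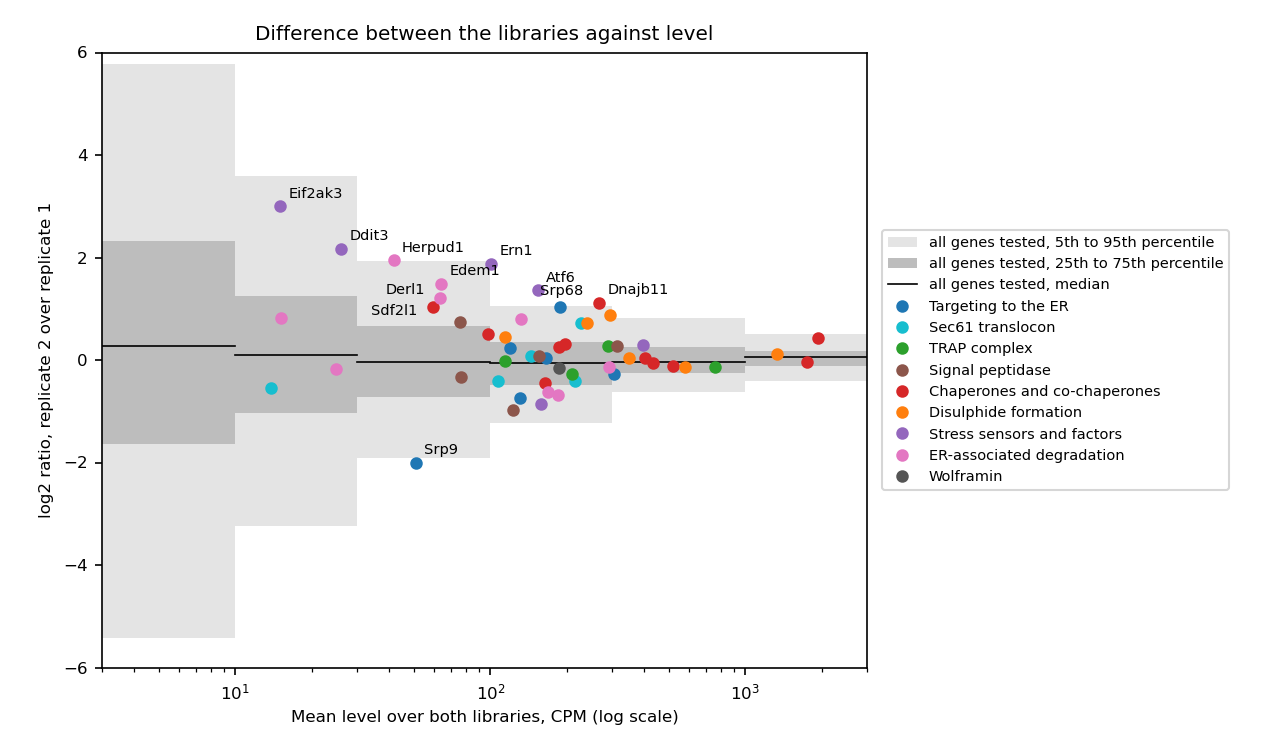
Log2 ratio of replicate 2 over replicate 1 against mean level in CPM (log axis); points are the 53 genes coloured by role, and the shaded bands give percentiles of all genes tested in each of 6 level ranges. Of the 53 points 48 lie within the 5th to 95th percentile of their range, with Ern1, Atf6, Herpud1 and Dnajb11 above it and Srp9 below it. Ern1, at a mean of 100.6 CPM, lies just over the range edge at 100 CPM.

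Each ratio was also placed among genes of its own level. In level ranges of 10 to 30, 30 to 100, 100 to 300, 300 to 1000 and 1000 to 3000 CPM, 48 of the 53 log2 ratios lay inside the central 90% of all genes tested. Ern1 lay at percentile 99.6, Atf6 at 98, Dnajb11 at 95.6, Herpud1 at 95.1 and Srp9 at 4.6. The place of Ern1 depends on the range edge, since its mean of 100.6 CPM is just over 100. Its log2 ratio of 1.88 is above the 95th percentile from 100 to 300 CPM, 1.06, but below that from 30 to 100 CPM, 1.94. Eif2ak3 had the largest fold difference of the 53, and its ratio lay at percentile 92.1 of genes from 10 to 30 CPM, which spread from -3.23 to 3.60 (5th to 95th percentile). Ddit3, in the same range, lay at percentile 86.0.

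Other listed genes of the same pathways were mostly present. All 16 genes of N-glycosylation reached 1 CPM in both libraries, with 15 differing, 11 toward replicate 2 and 4 toward replicate 1, against 85.8% of all genes tested called and 44.1% toward replicate 2. The highest per kb was Ostc, an oligosaccharyltransferase subunit, at 177 and 280.5 CPM per kb. Of 12 further targeting and insertion genes 10 reached 1 CPM in both. Among these Asna1, the ATPase that delivers tail-anchored proteins, was at 172 and 129 CPM per kb, and Tram1 was at 129.5 and 92.3. No read of Srp54b or Tram2 was counted. The related genes Srp54a and Srp54c were also low, with 50 and 18 and with 53 and 36 reads in replicates 1 and 2. Words shared between the Srp54 genes were not examined, and the treatment of reads with several matches is not given. Whether Srp54b is silent was therefore not tested. Of 22 further folding genes 18 reached 1 CPM, and the isomerase Tmx1 had the highest mean, at 79.2 and 49.2 CPM per kb, although Sdf2 and Erp29 were above it in replicate 2 at 65.6 and 51.6. Clgn, a calnexin relative known from testis, had no read. Of 17 further ERAD genes 17 did, 7 of them called toward each replicate. Selk had the highest mean of these, at 48.2 and 82.6 CPM per kb, although Rnf5 was above it in replicate 1 at 70.4.

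On the signalling side, 12 of 15 further sensor and processing genes reached 1 CPM in both libraries, with 5 called toward replicate 2 and 7 toward replicate 1, all 12 that were tested. Mbtps1, the protease that releases ATF6 in the Golgi, was at 40.6 and 54.1 CPM per kb. Ern2, the second IRE1 gene and known from gut epithelium, and Creb3l3 had no read, which allows up to 0.241 and 0.248 CPM in replicates 1 and 2. Of 16 targets of ATF4 and CHOP 12 reached 1 CPM. The median over all 16 was 5.86 and 7.30 CPM per kb, close to 7.13 and 7.35 over all genes tested. The latter leaves out genes with fewer than 10 reads, whereas the former does not. Slc7a5, an amino acid transporter, had the highest mean at 26.7 and 42.1 CPM per kb, although Sesn2 was above it in replicate 1 at 31.4. Atf3 was at 24.97 and 29.2, and Trib3, a classical CHOP target, had no read. Of the 15 targets tested 10 were called toward replicate 2 and 5 toward replicate 1. For both lists the background is the same, 85.8% of all genes tested called and 44.1% toward replicate 2.

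**Figure D4:**
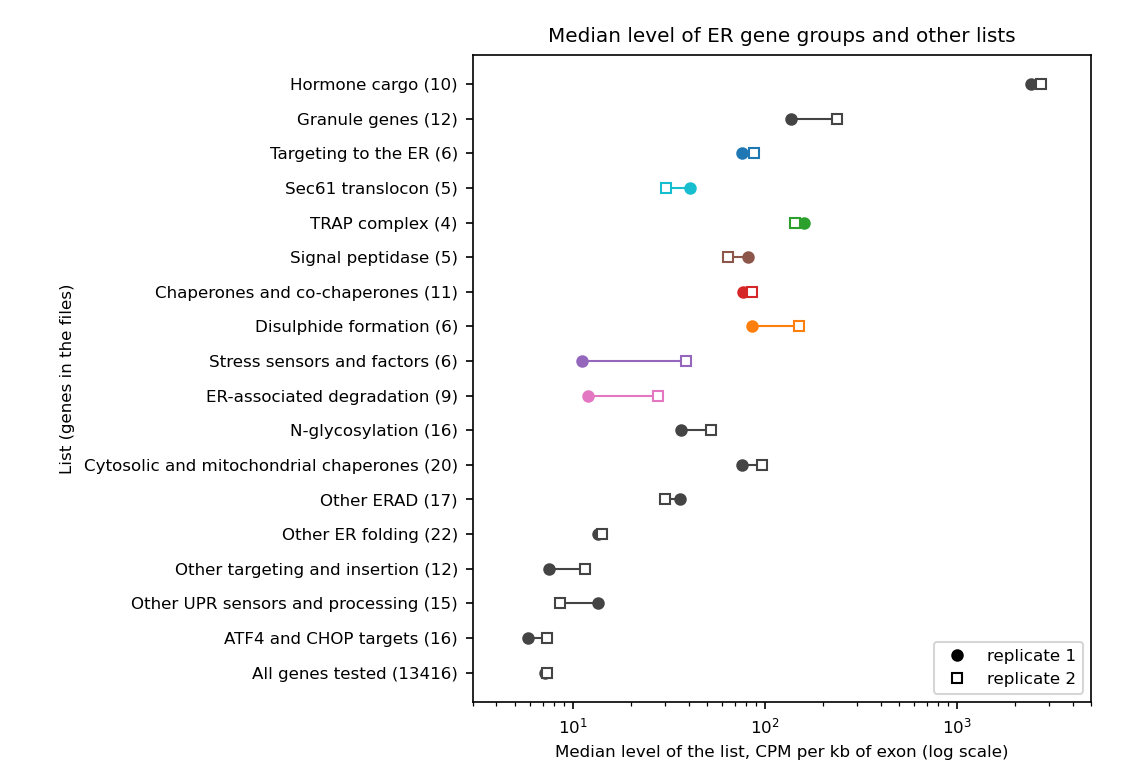
Median level of each group of the ER genes (coloured) and of other lists (dark grey) in CPM per kb of exon (log axis), in replicate 1 (filled circles) and replicate 2 (open squares), with the number of genes in brackets. Hormone genes lie highest, at 2417 and 2748, and the targets of ATF4 and CHOP lie beside all genes tested.

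Set beside their cargo, the folding genes had lower medians, but single levels overlapped. Of the folding genes, Hsp90b1, Hspa5, Pdia3, P4hb and Calr were above the lowest hormone gene, at 124 and 128 CPM per kb, in both libraries. The 10 hormone genes had a median of 2417 and 2748 CPM per kb in replicates 1 and 2, and 12 granule genes had a median of 136 and 238. The 6 disulphide genes had a median of 85.5 and 150 CPM per kb. The 11 chaperone genes, at 76.6 and 85.6, lay near a list of 20 cytosolic and mitochondrial chaperones, at 75.9 and 96.6 CPM per kb. These medians are given side by side and no test of their difference was made.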

How the data were processed

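The authors deposited raw counts of reads per gene symbol, 1 file per library. Per the submitters' processing notes, the tools were TopHat2 2.0.4, Cufflinks 2.0.2, cutadapt, FastQC and DESeq, in unstated roles, and the build was mm9. Which program counted the reads, with what annotation and strand setting, is not given in the sources used here. From these counts CPM was computed with TMM factors (edgeR 4.0.16, R 4.3.3; 0.9956 and 1.0044), and CPM per kb by dividing by the exon union of GENCODE M21 basic transcripts (GRCm38), matched for 97.9% of symbols. Coordinates are those of the RefSeq promoter windows on GRCm38.p6, not mm9. Genes with 10 or more reads in all were compared by a two-sided exact binomial test (SciPy 1.17.1) given the TMM-scaled sizes, with Benjamini-Hochberg adjustment at 0.05 over all of them; 1 group leaves no contrast for a quasi-likelihood test. The binomial test was tried on simulated counts that held counting error only. That trial therefore does not cover further spread between replicates. Log2 ratios used a prior count of 2, and intervals are at 95% and cover counting error only, since reads are not independent molecules. A count of 0 allows up to 3 counts.

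The genes and lists were chosen with earlier results of these data known. All 53 genes are named. The further lists cover genes of the pathways, cargo and other chaperones. Genes named from each list are among its 3 highest per kb or have no read. Hspa8, Srp54a and Srp54c are exceptions, chosen after their values were seen. Of 245 listed symbols 235 were found. Alternatives were other library scalings, including DESeq2 1.42.0 size factors, detection limits, read filters, gene lengths and leaving out each replicate. No protein sequences were used here, so no residues are reported.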

Additional observations from a re-analysis of the deposited data

How the results depend on the processing

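Lengths from coding sequence and from the median transcript were added after seeing the data; the coding length from a protein table was not run, and GENCODE's coding length took its place. All 53 genes stayed at or above 1 CPM in every setting except a limit of 5 CPM, where 52 did. The number differing was between 44 and 46 under other scalings and filters and 11 when a 2-fold difference was also required. Of the single genes, Hsp90b1 lost its call with plain totals and without the 10 most abundant genes, Calr gained one with DESeq2 size factors, and the other 51 kept theirs under each scaling. The median level was 66.3 CPM per kb of mean values, 38.1 with all transcripts, 151 per kb of coding sequence, 89.7 with median transcripts, 75.97 without the 10 most abundant genes in the totals, and 53.9 to 56.2 leaving out each replicate. The share of reads was 1.689% without those 10 genes in the totals, against a mean of 1.472%.

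Ratios between related genes depended on the gene length used, because long or rare transcripts enter some lengths and not others. The mean log2 ratio of Ero1lb to Ero1l was 1.08, and 1.39 by coding and 2.04 by median transcript length. That of Sec61g to Sec61b was -4.37 with all transcripts, -3.48 by coding and -3.84 by median transcript length. For Derl3 to Derl1 it was -1.26 with all transcripts and -1.86 by coding length. It turned with all transcripts to -0.51 for Sec11c to Sec11a, -0.15 for Derl2 to Derl1 (1.15 by coding, 2.24 by median transcript length), -0.29 for Edem2 to Edem1 (-1.01 by coding length) and 0.14 for Sdf2l1 to Sdf2. Leaving out each replicate gave -0.68 to 0.99 for Edem2 to Edem1 and -0.37 to 0.14 for Sdf2l1 to Sdf2. No paired analysis was possible because there is 1 group. Depth limits Eif2ak3, Sec61g and Derl3 most, with 40 to 324 reads a library, and Ddit3 in replicate 1, with 116.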

Other observations

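Each of 2 ratios chosen after the values were seen sets an ER gene beside a cytosolic relative. Hspa5 was 2.85-fold and 4.39-fold above Hspa8, the constitutive cytosolic Hsp70 gene, per kb in replicates 1 and 2. Hsp90b1 was 1.75-fold and 1.95-fold below Hsp90ab1, the constitutive cytosolic Hsp90 gene. Words shared with other genes were not examined for Hspa8 and Hsp90ab1, and these ratios were not run with other gene lengths. The folds are therefore less certain.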
